A study of Mus musculus with 18 samples.

Results

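S100a1, S100a4, S100a6, S100a10, S100a11 and S100a13 are 6 genes of the S100 family of calcium-binding proteins. They were taken by the gene name printed in the array files: 6 genes of 24969 measured, each with 1 probe among 41174 non-control probes. The rule uses names alone. All 6 probes were well above background in 36 of 36 channels, so no member was lost to the filter on dim probes.

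The arrays were 18 Agilent 2-colour arrays of total RNA from mouse cells, which gave 36 channels of 5 kinds of RNA. Deficient iPSC, induced pluripotent stem cells lacking the DNA methyltransferases Dnmt3a and Dnmt3b, came from 3 clones, 8, A6 and B2, with 6 channels in all. The same 3 clones in a state the labels describe as having some signs of differentiation, called differentiating here, had 12 channels. Control iPSC came from 4 lines, 3, 4, 5 and 6, with 12 channels. V6.5 embryonic stem cells (ESC) and mouse embryonic fibroblasts (MEF) had 3 channels each and were single reference RNAs whose own spread was not measured. The labels mark the differentiating, ESC and MEF channels as outside the study's own statistics. They give neither the strain, the age of the donor cells nor the alleles of the lines, and nothing says that repeat channels of a line came from separate cultures. The iPSC had grown on irradiated MEF feeders and were moved to gelatin for 1 or 2 passages, a step that lowers but need not remove feeder RNA. In such bulk RNA, fewer cells of a type and less RNA per cell cannot be told apart.

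S100 proteins are small proteins with a pair of EF-hand calcium-binding loops, and most act as dimers that grip a partner protein once calcium binds. S100a10 is the exception, since it no longer binds calcium and works in a complex with annexin A2 at membranes. Several of these genes, S100a4 and S100a6 above all, are known for high expression in fibroblasts and other mesenchymal cells. Dnmt3a and Dnmt3b place methyl groups on cytosines of CG dinucleotides.

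All 6 probes lie on chromosome 3, in 2 groups. On mouse build mm7, the build named in the array files, the probe of S100a1 is at chr3:90642309-90642368, that of S100a13 within chr3:90647126-90655132, that of S100a4 at chr3:90736122-90736182 and that of S100a6 at chr3:90744440-90744499. The probes of S100a11 at chr3:93627811-93627870 and of S100a10 at chr3:93666231-93666290 lie about 3 Mb further on. The S100a13 interval spans 8007 bases, against 60 for S100a1.

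The windows around the annotated starts are shown because several of these genes differed together and because CG is the site the missing enzymes methylate. Methylation itself was not measured here. RefSeq (GRCm38.p6) held a window for 5 of the 6 genes, from 250 bases before to 50 bases after the start, read 5′ to 3′ on the strand of the gene. CG dinucleotides are in capitals. The windows are S100a4 (chr3:90603520-90603819, plus strand), S100a6 (chr3:90612644-90612943, plus), S100a11 (chr3:93520246-93520545, plus), S100a1 (chr3:90514281-90514580, minus) and S100a13 (chr3:90514185-90514484, plus).
S100a4: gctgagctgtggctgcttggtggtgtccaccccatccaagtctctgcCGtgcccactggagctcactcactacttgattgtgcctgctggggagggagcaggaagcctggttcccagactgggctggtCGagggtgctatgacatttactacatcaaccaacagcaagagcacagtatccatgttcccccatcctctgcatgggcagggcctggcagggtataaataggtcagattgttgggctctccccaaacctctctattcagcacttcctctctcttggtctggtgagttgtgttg
S100a6: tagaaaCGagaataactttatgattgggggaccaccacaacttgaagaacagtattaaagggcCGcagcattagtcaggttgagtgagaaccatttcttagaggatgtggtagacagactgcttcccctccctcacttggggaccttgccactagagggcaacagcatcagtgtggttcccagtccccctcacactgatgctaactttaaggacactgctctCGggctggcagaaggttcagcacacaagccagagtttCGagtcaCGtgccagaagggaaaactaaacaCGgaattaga
S100a11: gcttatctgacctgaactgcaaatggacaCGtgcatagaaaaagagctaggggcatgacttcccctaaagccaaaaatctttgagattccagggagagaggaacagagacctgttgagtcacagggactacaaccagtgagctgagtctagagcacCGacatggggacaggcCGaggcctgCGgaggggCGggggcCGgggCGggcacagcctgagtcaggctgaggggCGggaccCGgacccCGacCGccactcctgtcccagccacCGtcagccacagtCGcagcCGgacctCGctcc
S100a1: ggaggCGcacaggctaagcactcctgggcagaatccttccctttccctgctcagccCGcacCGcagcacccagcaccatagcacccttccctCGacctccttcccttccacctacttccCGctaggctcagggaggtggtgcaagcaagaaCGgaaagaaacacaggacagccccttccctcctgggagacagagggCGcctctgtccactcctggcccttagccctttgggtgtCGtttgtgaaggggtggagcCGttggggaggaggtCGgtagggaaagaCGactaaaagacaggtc
S100a13: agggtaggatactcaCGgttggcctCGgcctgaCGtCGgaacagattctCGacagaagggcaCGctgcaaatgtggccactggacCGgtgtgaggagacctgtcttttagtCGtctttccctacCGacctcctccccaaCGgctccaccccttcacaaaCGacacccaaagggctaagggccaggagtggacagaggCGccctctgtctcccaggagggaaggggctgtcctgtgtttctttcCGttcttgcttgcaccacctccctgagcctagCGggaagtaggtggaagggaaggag

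The S100a4 window had 2 CG, and 14.1% of the 32841 windows of all genes had fewer. S100a6 had 6 CG, close to the median window with 7. S100a1 had 11, S100a13 had 14 and S100a11 had 15, which put 58.6%, 63.7% and 65.4% of all windows below them. S100a1 and S100a13 point away from each other: their windows share 204 bases and their annotated starts lie 105 bases apart. A few short motifs were searched on both strands. TATAAA, the letters of a TATA box, stood in the S100a4 window alone, at position -31 from the start, and in 13.6% of all windows. TGANTCA, a pattern of AP-1 sites, stood in the S100a11 window alone, at -136 and -38, and in 7.81% of all windows. GGGCGG, a pattern of Sp1 sites that contains a CG, also stood in the S100a11 window alone, at -64, -52 and -24, and in 35.7% of all windows. CG itself stood in 94.6% of all windows. These are matches of letters, not measured sites.

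The labels were checked first. The Dnmt3a probe read 10.52 to 11.34 (log2 level) in the control lines, 8.96 to 9.86 in the deficient clones and 9.11 to 9.59 in the differentiating clones, and these ranges did not overlap the controls. Dnmt3b did not separate the groups, at 12.410 to 13.998 in control and 12.34 to 13.50 in deficient RNA. Whether these probes lie in the deleted parts is not given. The mean log2 level of 12 pluripotency genes was 13.28 to 13.60 in control lines, 13.85 to 14.06 in deficient clones, 13.22 to 13.47 in differentiating clones, 14.39 in ESC and 9.36 in MEF. Of 16 endoderm genes 6 were higher in differentiating clones than in control lines and none lower, against 4.74% of all genes called either way. The mean level of the 16 was 9.17 and 9.24 in deficient clones A6 and B2 but 10.63 in deficient clone 8, above the control lines at 9.05 to 9.99. Differentiating clones had 10.88 to 11.85. Without the array described next, these endoderm means were 8.93 to 9.61 in control lines and 10.60 to 12.41 in differentiating clones.

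One array went against its labels. It carried control line 5 in Cy5 beside differentiating clone 8 in Cy3. Over all genes, its line 5 channel correlated with the other channels of line 5 at r = 0.953 and with those of differentiating clone 8 at 0.959, and its clone 8 channel correlated with the other channels of clone 8 at 0.956. In the other 34 channels the correlation with the same line was at least 0.986. The 16 endoderm genes averaged 11.64 in that line 5 channel, against 8.85 to 8.98 in the other line 5 channels and 12.46 to 12.50 in the other clone 8 channels. Dnmt3a read 9.77 there, against 11.04 to 11.06 in the other line 5 channels. The clone 8 channel stood apart too, at 11.48 for the endoderm genes and at 9.82 for Dnmt3a, against 9.12 to 9.40 in the other clone 8 channels. S100a1 read 11.13 in the line 5 channel of this array, against 9.03 and 9.16 on the other 2 arrays of line 5. Member differences that rest on control lines or differentiating clones are therefore given with all 18 arrays and again without this one, a setting chosen after seeing the data. Levels of single lines are with all arrays unless stated.

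Deficient iPSC and both reference RNAs were read on 1 scan day (6 arrays, 2 slides), and control lines and differentiating clones on another (12 arrays, 3 slides). In deficient against control RNA, and in deficient against differentiating RNA, the groups cannot be told apart from the days of scanning. For 5 of the 6 members, all but S100a10, the 4 pluripotent RNAs of the first day, ESC included, lay below the 7 RNAs of the second day. That pattern held for 28.9% of all genes. Without the array above it held for 4 of 6 members, with S100a1 lost, and for 27.3% of all genes.

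**Figure D1:**
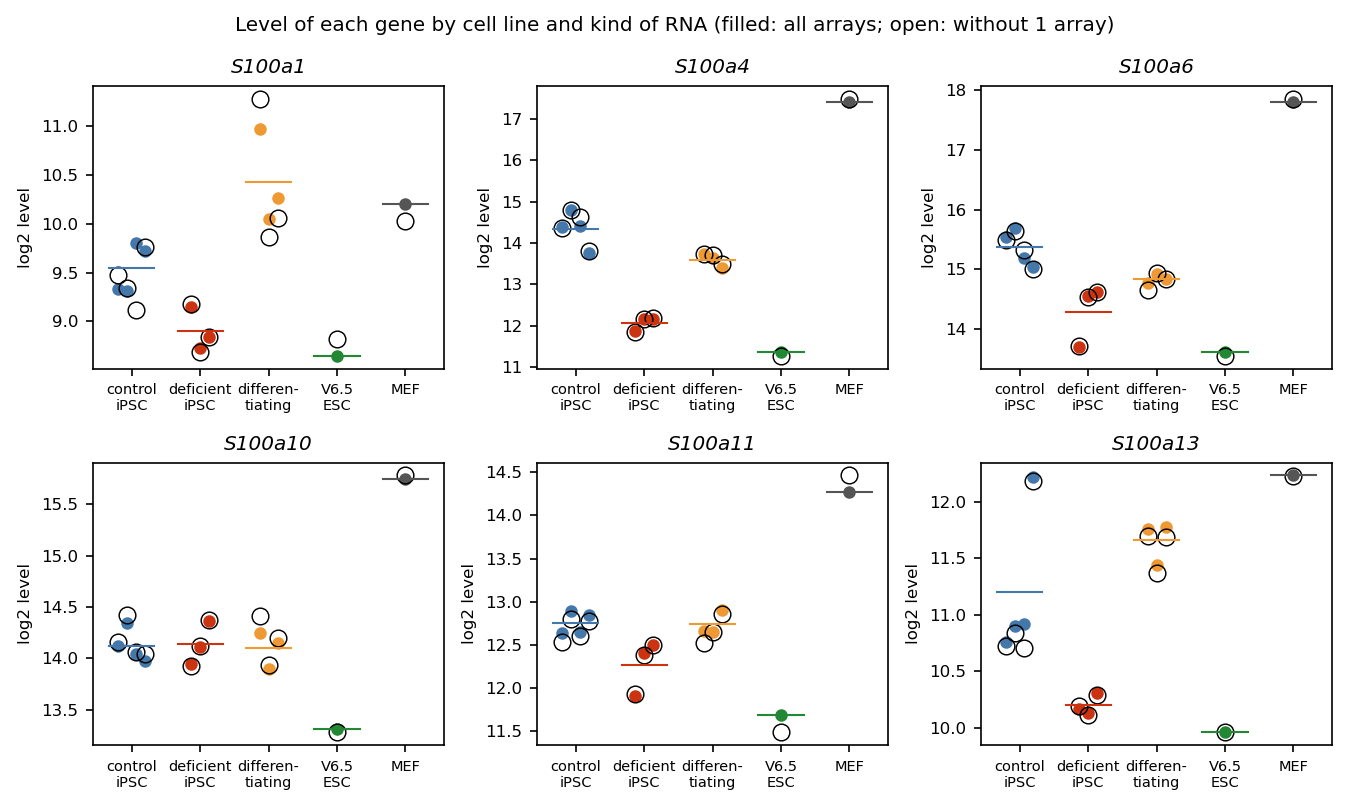
Log2 level (y axis) of each gene in each of the 12 RNAs, by kind of RNA (x axis). Filled points use all arrays, bars are group means and open circles leave out the array of control line 5 and differentiating clone 8. With all arrays MEF is highest for 5 of the 6 genes and ESC is lowest for all 6, but without the array ESC lies above deficient clone A6 in S100a1, at 8.82 against 8.69. For S100a10 the 10 iPSC values lie together, between 13.90 and 14.36.

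The central comparison of the series is deficient against control iPSC, with 3 clones and 4 lines. Of the 6 members 4 were lower in deficient clones at an adjusted p under 0.05 (limma on 1 log2 value per line, Benjamini-Hochberg over 24967 genes), S100a4, S100a6, S100a1 and S100a11, and none was higher. In the same test 31.1% of all genes were lower, and 29.7% of the 17321 genes whose probe was well above background in every channel. The median difference of the 6 members was -0.82, against -0.06 over all genes. Without the array that went against its labels 3 of 6 were lower, against 30.7% of all genes. The direction of most genes in this comparison hung on the scaling between scan days. With it 7756 genes were lower and 3830 higher, and without normalization between arrays 656 were lower and 18726 higher, with a median of 0.44 over all genes. S100a4 and S100a6 stayed lower there, at -2.03 ± 0.24 (adjusted p = 0.000226) and -0.88 ± 0.27 (adjusted p = 0.0211). S100a1 at -0.03 ± 0.16 (adjusted p = 0.886) and S100a11 at -0.21 ± 0.16 (adjusted p = 0.256) were not called.

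S100a4, also known as metastasin, binds the heavy chain of non-muscle myosin and is a common fibroblast marker. Its log2 level was 14.37, 14.79, 14.40 and 13.76 in control lines 3, 4, 5 and 6. In deficient clones 8, A6 and B2 it was 11.87, 12.16 and 12.17. Every deficient clone lay below every control line, by more than the spread within either group. The difference was -2.26 ± 0.23 (SE), a 4.81-fold lower level, with an adjusted p of 0.000532. Its size exceeded that of 99.9% of all genes tested. Leaving out the array of control line 5 gave -2.33 ± 0.24 (adjusted p = 0.000532).

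S100a6, or calcyclin, has annexins and the ubiquitin-ligase adaptor Cacybp among its partners. It read 15.54, 15.69, 15.20 and 15.04 in control lines 3 to 6 and 13.71, 14.55 and 14.62 in deficient clones 8, A6 and B2. The groups did not overlap, and clone 8 was the lowest. The difference was -1.07 ± 0.26, 2.11-fold lower, with an adjusted p of 0.0157. It was -1.07 ± 0.25 without the array (adjusted p = 0.0129).

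S100a11 binds annexin A1 and related annexins. Control lines 3 to 6 had 12.64, 12.90, 12.64 and 12.85, and deficient clones 8, A6 and B2 had 11.91, 12.41 and 12.50. Clone 8 was again the lowest, and the groups were separate. The difference was -0.49 ± 0.15, 1.40-fold lower, with an adjusted p of 0.0374. This call was lost without the array, at -0.41 ± 0.14 with an adjusted p of 0.0559. It was also lost without clone A6 and without any 1 of the control lines, with adjusted p-values of 0.0562 to 0.0913, and with processed signals (adjusted p = 0.0870).

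S100a1, best known from heart and skeletal muscle, where it acts on calcium release, was the member that the odd array moved most. With all arrays control lines 3 to 6 read 9.33, 9.31, 9.80 and 9.72 and deficient clones 8, A6 and B2 read 9.14, 8.72 and 8.85. The difference was -0.64 ± 0.16, 1.56-fold lower, with an adjusted p of 0.0174. Without the array line 5 came down to 9.11, below deficient clone 8 at 9.18, so the groups then overlapped. The difference was -0.52 ± 0.17 there and still passed, with an adjusted p of 0.0476. The call was lost without normalization between arrays, as given above. It was also lost without deficient clone A6 (-0.55 ± 0.18, adjusted p = 0.0655) or B2 (-0.61 ± 0.20, adjusted p = 0.0602).

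S100a13 takes part in the release of growth factors and cytokines that lack a signal peptide, such as Fgf1. Control lines 3, 4 and 5 had 10.76, 10.90 and 10.92, while line 6 stood far above them at 12.22. Deficient clones 8, A6 and B2 had 10.17, 10.13 and 10.30, all below every control line. The difference of -0.999 ± 0.352 missed the threshold (adjusted p = 0.0555), and it was -0.91 ± 0.37 without the array (adjusted p = 0.0827). With control line 6 left out it was smaller, at -0.66 ± 0.07, and passed with an adjusted p of 0.000667. This was the 1 of 13 other settings that called S100a13.

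S100a10 was the member with the smallest difference. It read 14.12, 14.35, 14.04 and 13.97 in control lines 3 to 6 and 13.94, 14.11 and 14.36 in deficient clones 8, A6 and B2. These ranges overlapped almost fully. The difference was 0.02 ± 0.13 (adjusted p = 0.921), with a 95% interval from -0.28 to 0.32, which leaves out the size seen for S100a4, S100a6 or S100a1. Without the array the value was -0.04 ± 0.13.

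**Figure D2:**
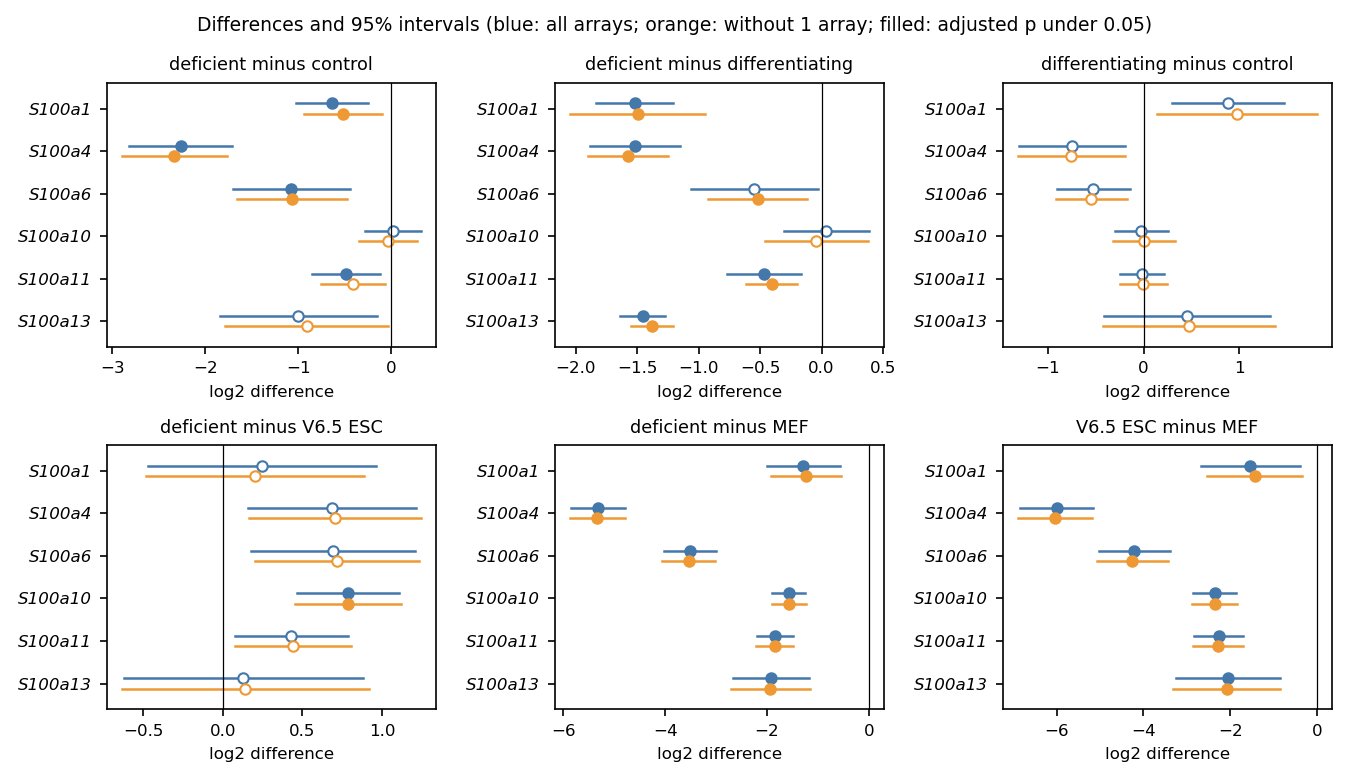
Log2 difference with its 95% interval (x axis) for each gene (y axis) in 6 comparisons, with all arrays in blue and without the odd array in orange. Filled points had an adjusted p under 0.05. S100a4 has the largest fall in deficient against control RNA, at -2.26, and all 6 genes lie left of 0 in both comparisons with MEF.

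Many feeder and fibroblast genes were also lower in deficient than in control RNA, but not as a group between the states of the clones. The mean log2 level of 30 fibroblast markers was 11.17 to 11.81 in control lines, 10.86 to 10.90 in deficient clones, 10.67 to 11.11 in differentiating clones, 10.71 in ESC and 14.96 in MEF. All 30 probes were well above background in every channel of every kind, so none was at 0. Against control lines, 16 of the 30 were lower in deficient clones and 3 higher (16 and 2 without the odd array, 11 and 6 without normalization between arrays), led by Col1a1 at -1.95 and Dcn at -1.70. In that test 31.1% of all genes were lower. In differentiating against control RNA 8 of the 30 were lower and none higher, or 13 without the odd array. Over all genes 4.74% passed there in either direction, or 8.81% without the odd array. Between the states of the clones, 9 of the 30 were higher and 7 lower in the deficient state, with a median of 0.15. These counts were 11 and 8 without the odd array, and 19 and 3 without normalization between arrays. In the main setting 4866 of all 24967 genes were higher in the deficient state and 8321 lower. Among control lines, line 6 had the lowest fibroblast level and the lowest S100a4 and S100a6, and line 4 the highest of all 3. Differentiating and deficient clones had fibroblast levels that overlapped, while their S100a4 levels did not. The part of feeder RNA in the S100a4 and S100a6 results was not tested.

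Genes of simple epithelium were lower in deficient than in control RNA too. The mean log2 level of 8 such genes was 13.04 to 13.59 in control lines, 11.61 to 12.01 in deficient clones, 12.52 to 13.17 in differentiating clones, 11.87 in ESC and 9.92 in MEF. Against control lines 6 of the 8 were lower in deficient clones and none higher (7 and none without the odd array, 5 and none without normalization between arrays), led by the keratins Krt8 (-3.06 ± 0.24, adjusted p = 0.000235), Krt18 (-2.66 ± 0.36, adjusted p = 0.00141) and Krt19 (-2.49 ± 0.24, adjusted p = 0.000426). In that test 31.1% of all genes were lower. None of the 8 passed in differentiating clones, with or without the odd array, against 4.74% and 8.81% of all genes. Their part in the S100 differences was not tested.

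**Figure D3:**
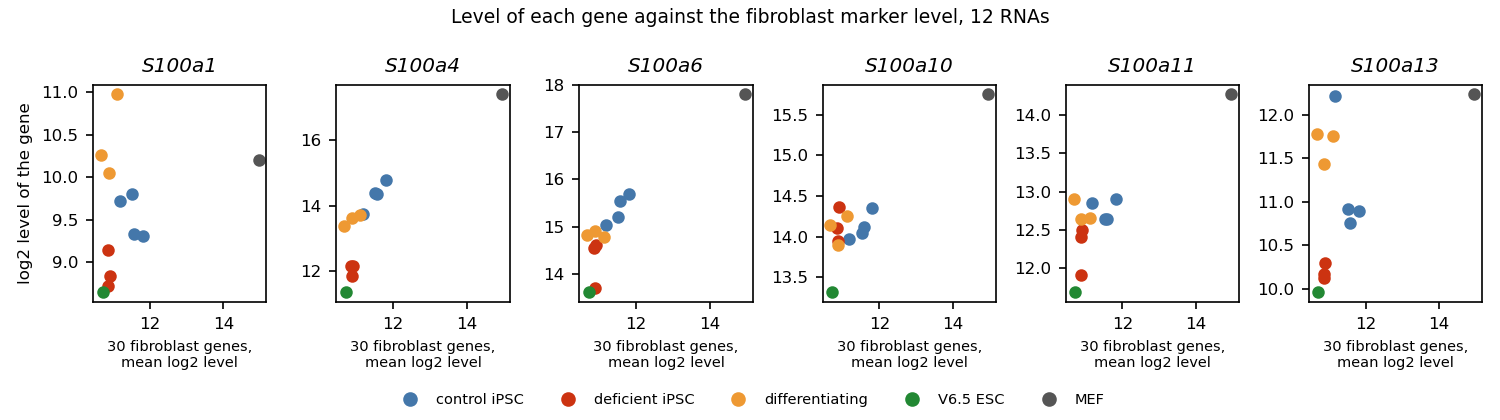
Log2 level of each gene (y axis) against the mean log2 level of 30 fibroblast markers (x axis) in 12 RNAs, 1 point per RNA, coloured by kind. MEF stands far right at 14.96. Among control lines, line 4 is highest and line 6 lowest in the markers, S100a4 and S100a6, while deficient and differentiating clones share a marker level of about 11 and differ in S100a4.

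Differentiating clones were read beside control lines on the same 12 arrays, so scan day does not separate these groups. None of the 6 members passed the test, against 4.74% of all genes, and none did without the odd array, against 8.81% of all genes. S100a1, S100a4 and S100a6, 3 of 6 members, had no overlap between the groups, a state found in 19.7% of all genes, or 22.6% without the array. Each replicate number in the labels goes with 1 clone and 1 slide, and same-numbered samples deviated together. With the replicate number as a block, S100a4 (-0.75 ± 0.09, adjusted p = 0.0196) and S100a6 (-0.51 ± 0.03, adjusted p = 0.0122) were lower, 2 of 6 members against 10.4% of all genes called lower. The same 2 were lower under the block without the odd array, at -0.75 ± 0.08 (adjusted p = 0.0195) and -0.55 ± 0.07 (adjusted p = 0.0220), against 9.4% of all genes. The same control lines recur under every replicate number, so the blocks are not independent of each other. Blocked errors therefore understate the spread between control lines: that of S100a6 was 0.03, against 0.16 in the test by line.

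S100a4 read 13.72, 13.63 and 13.39 in differentiating clones 8, A6 and B2, below all 4 control lines but close to line 6 at 13.76. The difference was -0.75 ± 0.23 (adjusted p = 0.124), and -0.76 ± 0.23 without the odd array (adjusted p = 0.106). Array by array, S100a4 was lower in the clone on 9 of 9 arrays that carried line 3, 4 or 5, by values from -1.28 to -0.55, the last being the odd array. On the 3 arrays with line 6 the values ran from -0.43 to 0.06. Without line 6 the difference was -0.94 ± 0.14, with an adjusted p of 0.0147. That setting called 3511 genes, against 1183 with all lines. Of 17 other settings 5 called S100a4, this one included.

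S100a6 had 14.78, 14.92 and 14.83 in the differentiating clones, just under the lowest control line at 15.04. Its difference was -0.53 ± 0.16 (adjusted p = 0.114), -0.55 ± 0.16 without the odd array (adjusted p = 0.0840) and -0.64 ± 0.13 without line 6 (adjusted p = 0.0290). S100a6 was called in 5 of 17 other settings, the one without line 6 included. The clone was lower on 9 of 12 arrays, and values ran from -1.25 to 0.30, with 0.26 on the odd array.

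S100a1 went the other way from S100a4. It read 10.97, 10.05 and 10.26 in differentiating clones 8, A6 and B2, all above the control lines and clone 8 the highest. The difference was 0.88 ± 0.24 with an adjusted p of 0.0913, and 0.98 ± 0.35 without the odd array (adjusted p = 0.156). Clone 8 then stood at 11.28, against 9.87 and 10.06 in A6 and B2. On the other 11 arrays S100a1 was higher in the clone on 11 of 11, and on the odd array the value was -0.15.

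S100a13 split by control line. Differentiating clones 8, A6 and B2 read 11.76, 11.44 and 11.77. They were higher than lines 3, 4 and 5 on 9 of 9 arrays, by 0.44 to 0.98 (0.62 on the odd array), and lower than line 6 on 3 of 3, by values from -0.82 to -0.44. The pooled difference was 0.46 ± 0.36 (adjusted p = 0.588), or 0.47 ± 0.38 without the odd array (adjusted p = 0.586). Without line 6 it was 0.80 ± 0.10 (adjusted p = 0.0115), the 1 of 17 other settings that called S100a13.

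S100a10 at 14.25, 13.90 and 14.15 and S100a11 at 12.66, 12.65 and 12.91 in clones 8, A6 and B2 overlapped the control lines. Their differences were -0.02 ± 0.12 and -0.02 ± 0.10, with 95% intervals from -0.30 to 0.26 and from -0.25 to 0.21. Without the odd array they were 0.0082 ± 0.14 and -0.0013 ± 0.10.

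**Figure D4:**
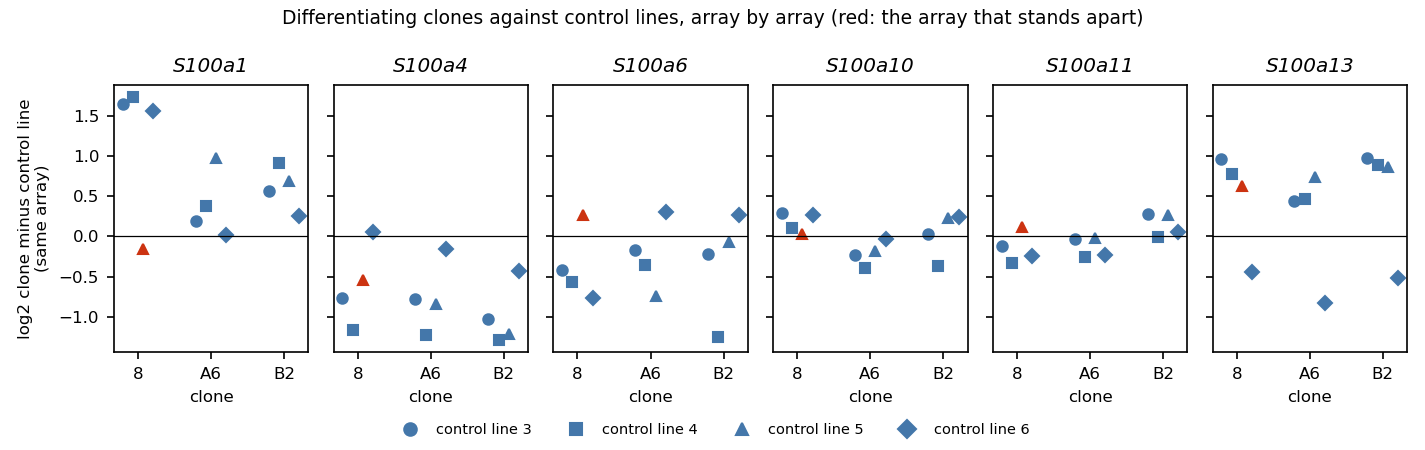
Within-array log2 difference of differentiating clone minus control line (y axis) for each clone (x axis), 1 point per array, with the control line by symbol. The red triangle is the array that went against its labels, where S100a1 lies at -0.15 while the other 11 arrays are above 0. S100a13 is above 0 against lines 3 to 5 and below 0 against line 6.

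The 2 states of the same clones were compared as 3 pairs, deficient minus differentiating. This contrast shares its RNAs with the comparisons above and also crosses scan days. Of the 6 members 4 were lower in the deficient state, S100a1, S100a4, S100a11 and S100a13, against 33.3% of all genes. Without the odd array 5 were lower, S100a6 being the added one, against 30.6% of all genes. S100a4 differed by -1.52 ± 0.13 (adjusted p = 0.00422), S100a1 by -1.52 ± 0.11 (adjusted p = 0.00387) and S100a13 by -1.46 ± 0.07 (adjusted p = 0.00387). S100a11 differed by -0.47 ± 0.11 (adjusted p = 0.0290) and was lower in each of the 3 clones. Without the odd array S100a4 differed by -1.58 ± 0.12, S100a1 by -1.50 ± 0.21, S100a13 by -1.38 ± 0.06 and S100a11 by -0.41 ± 0.08. S100a6 differed by -0.55 ± 0.19, with an adjusted p of 0.0714 that became 0.0465 without the array. S100a10 differed by 0.04 ± 0.13, with a 95% interval from -0.31 to 0.39, and by -0.04 ± 0.16 without the array. Without clone 8, S100a10 was higher in the deficient state at 0.21 ± 0.04 (adjusted p = 0.0180) and S100a6 lower at -0.29 ± 0.06 (adjusted p = 0.0177). Without normalization between arrays S100a1, S100a4 and S100a13 stayed lower, at -0.92 to -1.28, and S100a11 did not pass, at -0.16 ± 0.11 (adjusted p = 0.230). In that setting 1025 genes were lower and 19366 higher, against 8321 and 4866 with it. With clone A6 left out, no gene of 24967 passed, and S100a1, S100a4 and S100a13 had an adjusted p of 0.0517. Those 3 members passed without clone 8 and without clone B2, and S100a11 was also lost without B2 (-0.50 ± 0.15, adjusted p = 0.0903).

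Beside V6.5 ESC on the same arrays, the deficient clones were close in S100a1 and S100a13 and higher in S100a10. S100a10 was the member that passed, at 0.79 ± 0.15 (adjusted p = 0.00538), against 3.52% of all genes called higher. The within-array values were 0.65, 0.80 and 1.09, above 0 on each of the 3 arrays. The call was lost without clone B2, at 0.67 ± 0.17 with an adjusted p of 0.0757. S100a4 differed by 0.69 ± 0.25 (adjusted p = 0.136), S100a6 by 0.70 ± 0.24 (adjusted p = 0.118) and S100a11 by 0.43 ± 0.17 (adjusted p = 0.169). For S100a6 the arrays of clones 8, A6 and B2 gave 0.40, 1.42 and 1.49, and the fit with no dye term called it higher (adjusted p = 0.0178). For S100a11 they gave -0.10, 0.75 and 0.73, and with no dye term 0.46 ± 0.14 (adjusted p = 0.0646). S100a6 and S100a11 were least different in clone 8: without it they passed, at 1.05 ± 0.21 (adjusted p = 0.00811) and 0.71 ± 0.14 (adjusted p = 0.00888). S100a13 differed by 0.13 ± 0.35 and S100a1 by 0.25 ± 0.34. For S100a1 the 3 arrays, all with ESC in Cy5, gave -0.07 to 0.06, and the fit with no dye term gave -0.03.

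MEF had the highest level of every member but S100a1. The log2 level in MEF was 17.41 for S100a4, 17.79 for S100a6, 15.75 for S100a10, 14.27 for S100a11, 12.23 for S100a13 and 10.20 for S100a1. Control line 6 nearly reached MEF in S100a13, at 12.22, and differentiating clones 8 and B2 were above MEF in S100a1, at 10.97 and 10.26. All 6 members were lower in deficient clones than in MEF, against 30% of all genes. S100a4 differed by -5.31 ± 0.25, 39.8-fold, and by -5.37 to -5.15 within the 3 arrays. S100a6 differed by -3.51 ± 0.24 (11.4-fold), and by -4.41 to -3.64 within the 3 arrays. MEF was in Cy3 on each of these arrays, so the dye correction rests on arrays of the other scan day. S100a13 differed by -1.92 ± 0.35 and S100a11 by -1.84 ± 0.17. S100a10 differed by -1.58 ± 0.15 and S100a1 by -1.29 ± 0.34, which was the smallest. Adjusted p-values ran from 1.40e-11 for S100a4 to 0.00359 for S100a1.

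ESC against MEF, linked through the deficient clones, gave the same picture with shared arrays. All 6 members were lower in ESC, against 26% of all genes, from -6.001 ± 0.395 for S100a4 (64.0-fold) to -1.53 ± 0.54 for S100a1. S100a6 differed by -4.21 ± 0.38 (18.5-fold), and by -5.02 to -4.12 in other settings. S100a10, S100a11 and S100a13 lay between -2.36 and -2.05. The S100a1 call was lost, with adjusted p-values up to 0.0971, when clone A6 or B2 was left out, with no dye term (-0.98 ± 0.43), with the processed signals and with the authors' deposited table.

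In order of mean level, 4 members, S100a4, S100a6, S100a11 and S100a13, ran from ESC through deficient clones to MEF, with control lines and differentiating clones between. For S100a4 and S100a6 the order was ESC, deficient, differentiating, control, MEF, and the iPSC neighbours in it did not overlap. For S100a13 it was ESC, deficient, control, differentiating, MEF, with control line 6 above the differentiating clones. For S100a11 control and differentiating values overlapped. S100a1 ended with differentiating clones at a mean of 10.43, above MEF in the mean, although clone A6 was below it. These orders of means are those with all arrays. They mix the 2 scan days, since ESC, deficient clones and MEF were read on the first day and the others on the second. For S100a6 the gap between deficient and differentiating clones was 0.15, or 0.045 without the odd array. For S100a10 the 3 iPSC kinds could not be ordered, at means of 14.14, 14.10 and 14.12 in deficient, differentiating and control RNA.

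Over the 12 RNAs the members differed in how alike their patterns were, a description over values that share lines and arrays. S100a4 and S100a6 had r = 0.965 over 12 RNAs and 0.899 over the 10 iPSC values. S100a6 and S100a11 had 0.959 and 0.817. S100a1 and S100a13, the divergent pair, had 0.838 and 0.799. S100a10 had 0.809 with S100a4 over 12 RNAs but 0.107 over the iPSC, so the first value rests on ESC and MEF. Without the odd array these 4 pairs had 0.961, 0.953, 0.777 and 0.819 over 12 RNAs, and 0.897, 0.770, 0.763 and 0.212 over the iPSC. The named genes most like S100a4 included Thy1 (r = 0.993), a fibroblast surface marker, and Nck2 (0.984). Most like S100a6 were Prmt2 (0.993), Timp1 (0.983), a protease inhibitor, and Cebpb (0.982), a transcription factor. Cebpb also led for S100a11 (0.974), before Pik3r3 (0.974) and Mettl21a (0.971). S100a10 was most like Zcrb1 (0.976), Atxn7l3b (0.964) and Sec63 (0.962). S100a1 was most like Ubash3b (0.959), Synj1 (0.956) and Abhd2 (0.956). S100a13 was most like Ube2g2 (0.947), Snx14 (0.940) and Tmem18 (0.939). Without the odd array the genes named here had r from 0.909 to 0.993 with their member.

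Among the other S100 family genes 10 were measured. In deficient against control iPSC 6 were lower and 1 higher, with a median of -0.13, but none was lower and 5 were higher without normalization between arrays, with a median of 0.42. The counts were also 6 and 1 without the odd array. With all arrays 31.1% of all genes were lower in that test. S100a16 (-0.58 ± 0.15, adjusted p = 0.0182), S100b (-0.52 ± 0.07, adjusted p = 0.00114) and S100a5 (-0.49 ± 0.03, adjusted p = 0.000183) fell most, and S100a14 rose by 0.31 ± 0.09 (adjusted p = 0.0296). The S100a5 probe was dim. Its mean log2 level was 7.53 in deficient clones, 7.53 in ESC and 7.59 in MEF, all of the first scan day. It was 8.02 in control lines and 8.04 in differentiating clones, both of the second day. S100a16 was the 1 family gene called lower in differentiating clones, at -0.71 ± 0.15 (adjusted p = 0.0487), and with S100a3 and S100b it made 3 without the odd array. Over all genes 4.74% passed there in either direction, or 8.81% without the odd array. Against MEF, S100a16 differed by -2.12 ± 0.20 (adjusted p = 7.68e-08) and S100b by -1.88 ± 0.09 (adjusted p = 1.04e-11). S100g, or calbindin-D9k, an intestinal calcium carrier, was lower in the deficient than in the differentiating state in the normalized data, at -1.47 ± 0.16 (adjusted p = 0.00530).

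The partners that S100 proteins bind were examined next. Of 24 genes for such partners 13 were lower and 1 higher in deficient than in control iPSC, against 31.1% of all genes called lower. The median of the 24 was -0.24. Their direction too turned without normalization between arrays, to 3 lower and 13 higher with a median of 0.23. The counts were 13 lower and 2 higher without the odd array. Of the 24 probes 19 were well above background in all channels of deficient RNA and 21 in all of control RNA. The leading falls were Myh9 (-0.88 ± 0.11, adjusted p = 0.00102), the myosin heavy chain bound by S100a4, and Anxa5 (-0.86 ± 0.14, adjusted p = 0.00336). Plaur (-0.78 ± 0.26, adjusted p = 0.0462) and Plat (-0.76 ± 0.10, adjusted p = 0.00134), of the plasminogen system that S100a10 serves, followed. The call on Plaur was lost without the odd array, at -0.67 ± 0.28 (adjusted p = 0.0951). Anxa2, the partner of S100a10, differed by -0.24 ± 0.08 with an adjusted p of 0.0533. Against MEF 11 of the 24 were lower and 4 higher, led by Ahnak at -4.08 ± 0.24 (adjusted p = 2.25e-10) and Anxa1 at -3.75 ± 0.23 (adjusted p = 3.60e-10). In that test 30% of all genes were lower. Tpm1 (-1.14 ± 0.17, adjusted p = 0.0301) and Anxa1 (-1.04 ± 0.18, adjusted p = 0.0344) were the 2 partners lower in differentiating clones than in control lines, and none was higher. Over all genes 4.74% passed there in either direction.

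Between the probes of S100a1 and S100a10, 3.02 Mb apart, lie 54 other measured genes, many of them skin genes of the epidermal differentiation complex. In deficient against control iPSC 37 of the 54 were lower and 3 higher, with a median of -0.26, while 31.1% of all genes were lower. Without normalization between arrays 3 were lower and 33 higher, with a median of 0.24, so their direction hung on the scaling. Their levels were low: the median was 7.83, against 8.66 over all genes, and 19 of the 54 lay at or under 7.56, with the dimmest 6242 genes. Of those dim genes 33.5% were lower in the same comparison. Of the 30 neighbours whose probe was well above background in every channel 20 were lower (66.7%), against 29.7% of all such genes. With the odd array left out, 36 of the 54 were lower and 3 higher. In differentiating against control RNA 1 of the 54 was lower and none higher, or 5 and 1 without that array. Against differentiating clones, also read on the other scan day, 28 of the 54 were lower in deficient clones and 4 higher. Their median was -0.17, and 33.3% of all genes were lower. Without normalization between arrays 1 was lower and 37 higher. Against ESC and MEF, read on the same day as the deficient clones, the medians of the 54 were 0.02 and -0.04. In ESC against MEF 14 were lower and 3 higher, with a median of -0.07, so the neighbours as a group did not have the differences from MEF that the members had. The probe for S100a16, 30.2 kb from that of S100a1, was among those lower in deficient clones.

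**Figure D5:**
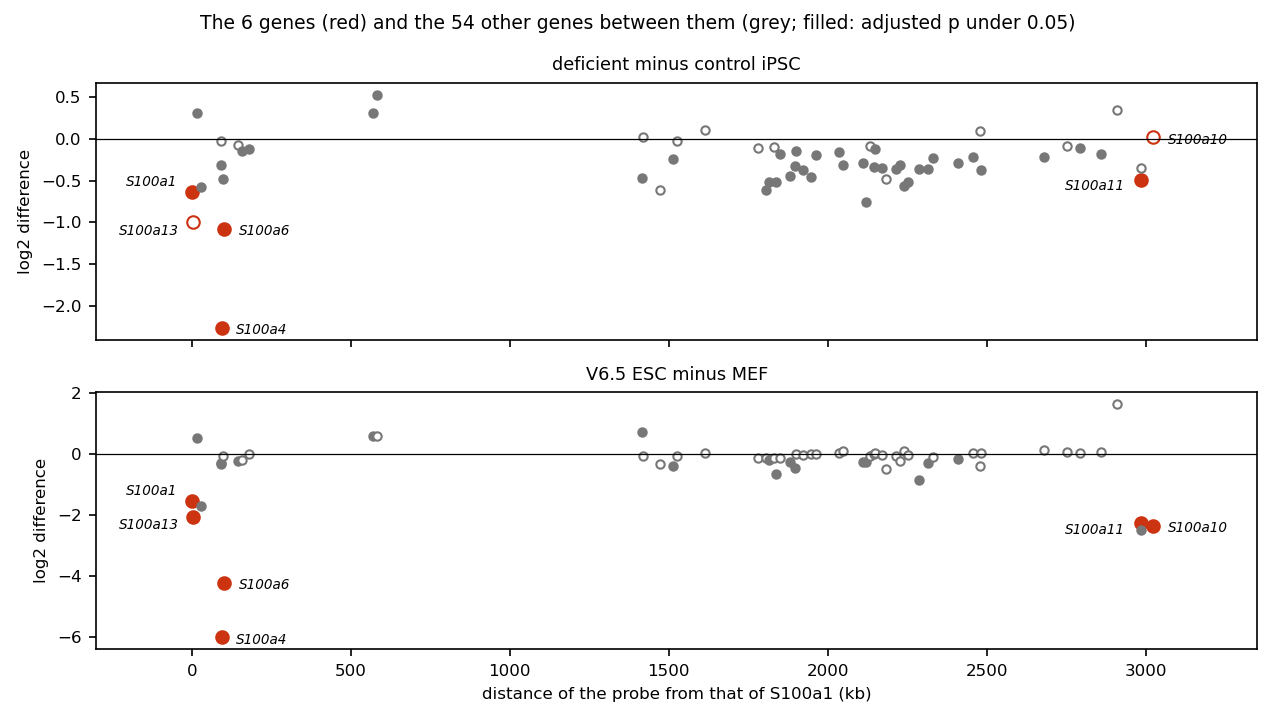
Log2 difference (y axis) of the 6 genes in red and 54 other genes in grey against the distance of the probe from that of S100a1 in kb (x axis), for deficient minus control iPSC above and ESC minus MEF below. Filled points had an adjusted p under 0.05. The grey points lie mostly a little under 0 above, with a median of -0.26 (0.24 without normalization between arrays), and around 0 below, while the red points reach -2.26 and -6.001.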

How the data were processed

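Per the file headers, Agilent Feature Extraction gave a mean spot intensity and a local background intensity for each dye, and processed signals. The authors' deposited value table holds log2 ratios; its scale and centring are not stated. Set against ratios computed here, it ran as deficient or differentiating over partner, with correlations of 0.665 to 0.999 and 3 of 18 arrays under 0.9. The submitters' processing notes name limma, with no version.

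With limma 3.58.1 (R 4.3.3), background was removed by normexp with an offset of 50. Loess then balanced the dyes of each array and Aquantile aligned the arrays, which hides a shift shared by most genes. Outlier spots, at most 0.447% of an array, were left out, and no spot was saturated. A probe was kept (36965 of 41174) if well above background in a share of 0.5 or more of the channels of any kind of RNA. The brightest probe stood for a gene, and 2 genes lacked a line value. A separate-channel fit (lmscFit, 12 terms for line and state plus dye, intra-spot correlation 0.811) gave 1 log2 level per line. limma compared these levels between groups, with the states paired by clone. Reference RNAs were compared in a limma fit of all array ratios that included dye, whose error leaves out the spread of the reference RNAs themselves. P-values are two-sided, adjusted by Benjamini-Hochberg across all genes, and errors are standard errors. The number of arrays limits the precision. In tests on 1 level per line, p-values rest on the spread between lines or clones. In the fit of array ratios they rest on the spread between arrays, which carried different clones and control lines. Where repeat channels of a line are technical, the spread between cultures of that line was not measured. The code was tested on simulated arrays, and matplotlib 3.10.9 drew the figures.

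The members, lists and tests were chosen with earlier results of these data known. Genes named were the 6 members, the 3 most correlated with each, at most 4 called genes a list by size, Dnmt3a and Dnmt3b. Anxa2 was named outside that rule after its values were seen. A gene that the rule names is not reported here. Same-numbered differentiating and control samples shared a slide and deviated together (r = 0.721, 0.760 and 0.601), so blocked values are given where they change a call. Alternatives were other normalizations, signals, filters and probe rules, the deposited table, the replicate block, each line left out, and the array that went against its labels left out.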

Additional observations from a re-analysis of the deposited data

Results flagged for a closer look

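S100a13 in the 4 control lines had a highest value far from the others: the gap between line 6 and the nearest line was 0.891 of the whole range, above Dixon's 95% critical value. Chance flags about 1 in 20 such groups. Without the array that went against its labels the share was 0.913.

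The deficient and the differentiating state of the same clones, set against the same control lines, differed from each other by a paired test in 4 members. S100a1 differed by -1.52, S100a4 by -1.52, S100a11 by -0.47 and S100a13 by -1.46 (limma over 3 pairs). In the same test 8321 of 24967 genes (33.3%) were lower and 4866 higher, so such a difference was common on these arrays. The 2 states were read on different scan days, so state and day cannot be told apart.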

How the results depend on the processing

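The 6 members in 6 comparisons gave 432 values under other settings: 370 kept their direction and side of the threshold, 23 lost the call, 20 gained it and 19 changed sign, none of these 19 a called value. Deficient against control called 11586 genes, 8877 to 13745 with a line left out (2 to 4 members), and 19382 with 2 members without normalization between arrays, which moved the median of all genes from -0.06 to 0.44. Deficient against differentiating called 13187 genes, 0 to 14627 with a clone left out (0 without A6, 6902 without B2; 0 to 6 members), 20391 without normalization between arrays (median -0.07 to 0.44). Deficient against ESC called 1344, 385 to 1435 with a clone left out (385 without B2, 439 without A6; 0 to 3 members), 3507 with processed signals and 3698 with the authors' deposited table; with no dye term 2 members passed. Deficient against MEF called 14521 genes, and 21940 at probe level. Differentiating against control called 1183 genes, 0 to 3511 with a line left out (0 to 3 members; 1 gene without line 3, 29 without line 4, 3511 and 3 members without line 6). It called 8655 with 3 members in the authors' deposited table, 7831 with 3 members from within-array ratios per clone (S100a1, S100a4 and S100a6), and 2200 without the array that went against its labels.

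With the replicate block, differentiating against control called 4830 genes and 2 members, and 4412 genes and 2 members when that array was also left out; it changed no other call. The settings that leave out that array were chosen after seeing the data.

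S100a10 changed sign in deficient against control, to -0.12 with processed signals, -0.096 without clone B2, -0.0088 and -0.032 without control line 5 or 6, and -0.035 without the array. Against differentiating clones it went to -0.088 with processed signals, -0.045 and -0.048 without clone A6 or B2, and -0.043 without the array. In differentiating against control it went to 0.078 without clone A6, 0.053 without control line 4 and 0.0082 without the array. S100a11 there went to 0.019 and 0.025 without clone 8 or A6, 0.026 without control line 4 and 0.011 without control line 6. S100a1 against ESC went to -0.060 with processed signals, -0.029 with no dye term and -0.051 with the deposited table. The cause of these changes was not tested. With 3 clones and 4 lines, small differences such as those of S100a10 and S100a11 are at the limit of what these arrays resolve.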
